A study of Mus musculus with 25 samples.

Results

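The genes described here are 40 genes of striated (skeletal) muscle, taken by symbol from a fixed list out of 21954 genes listed in either of the 2 deposited tables of mouse esophagus RNA. All 40 were listed in both tables and passed the filter on low values in both. They fall into 3 fast myosin heavy chains, 9 fast-fibre thin filament, light chain and Z-disc genes, 5 slow-fibre genes, 5 sarcomere genes of all fibres, 8 genes of calcium release and energy supply, 3 embryonic and perinatal isoforms, 4 genes of myogenic factors, satellite cells and the acetylcholine receptor, and 3 stress and atrophy genes. The study asked how a cancer-derived NRF2 mutation and loss of KEAP1 in squamous cells compare in the esophagus. NRF2 is a transcription factor that activates antioxidant and detoxification genes, KEAP1 marks it for degradation, and the L30F knock-in puts phenylalanine in place of leucine 30 of NRF2. Cre was driven by the keratin 5 (K5) promoter, which is active in squamous epithelium and not in muscle, so the muscle genes were read in cells that the design does not target.

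In the first experiment mice aged 7 to 10 days (called pups here) were used with constitutive K5Cre, with 3 libraries each of Wild-Type, NRF2L30F/L30F::K5Cre (L30F homozygotes) and KEAP1fl/fl::K5Cre (KEAP1-deficient). In the second, mice aged 6 to 9 weeks (called adults here) were taken 1 week after tamoxifen at 100 µg/g body weight, which activates CreERT2, with 4 libraries each of Wild-Type, NRF2L30F/+::K5CreERT2 (L30F heterozygotes), NRF2L30F/L30F::K5CreERT2 (L30F homozygotes) and KEAP1fl/fl::K5CreERT2 (KEAP1-deficient). The labels do not say whether wild-type mice carried Cre or whether libraries came from separate animals, so p-values reflect only how far these libraries spread. Age, the kind of Cre and tamoxifen differ together between the experiments and cannot be told apart.

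In the mouse, the outer muscle coat of the esophagus is laid down as smooth muscle and becomes striated along nearly its whole length around and after birth. Striated fibres contract when calcium released from internal stores binds troponin on the thin filament and lets myosin heads pull on actin. Most of these parts exist as isoforms: embryonic and perinatal myosins (Myh3, Myh8) are usually replaced by adult fast (Myh1, Myh2, Myh4) or slow (Myh7) myosins, and slow and fast fibres have their own troponins.

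Depth over listed genes was 18.8 to 19.7 M reads in pups. Adult wild-type libraries held 27.5 to 32.3 M, KEAP1-deficient ones 22.5 to 31.3 M, heterozygous ones 12.8 to 16.9 M and homozygous ones 10.9 to 11.6 M. The wild-type, heterozygous and homozygous adult ranges did not overlap, so depth went with L30F genotype there. A fit thinned to equal depth is given at the end. Over all genes that fit called 1585 in heterozygous and 3815 in homozygous adults, against 1927 and 4420 without thinning. Keap1 had 725 to 825 normalised counts in KEAP1-deficient pups against 1053 to 1094 in wild type, and 721 to 812 against 1077 to 1192 in adults. Some libraries stood apart. Pup L30F homozygote library 1 had 30814 normalised counts of the thyroid gene Tg, against at most 172 in the other 24 libraries. Pup L30F homozygote library 2 had the highest values of the slow-fibre genes Myh7, Tnnt1, Tnni1 and Tnnc1 of all pup libraries. Pup L30F homozygote library 3 had 0 counts of the Y-linked gene Ddx3y, which was at 542 or more in the other 24. Adult wild-type library 4 lay farther from the other 3 wild-type libraries (chi-square of the recovered reads per degree of freedom 43.8 to 53.6) than these from each other (17.2 to 22.7). Without it 16, 10 and 35 muscle genes were called in heterozygous, homozygous and KEAP1-deficient adults. Over all genes 2448, 4491 and 8842 were then called, against 1927, 4420 and 9290 with all libraries. Values below are normalised read counts, listed in the order of the replicate numbers. Log2 fold changes were taken after adding 1 to each value, so changes of low genes are understated, and a gene is said to rise or fall where limma's Benjamini-Hochberg adjusted p over all genes was under 0.05. The 2 tables were normalised separately, so levels in pups and adults are set side by side but were not tested against each other.

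In wild-type esophagus the muscle genes were abundant at both ages. They took 5.94% ± 0.386 (SD, n = 3) of the counts of all listed genes in pups and 8.41% ± 0.581 (SD, n = 4) in adults. Per kilobase of coding sequence, Acta1, skeletal actin, had the highest level of the 40 genes, at 91162 normalised counts per kb in pups and 121720 in adults. In pups it was followed by the fast light chains Mylpf (42944 per kb) and Myl1 (35799), and the lowest were Myh7 (125), Ankrd1 (103) and Myh2 (101). In adults it was followed by Mb, the oxygen store myoglobin (38884 per kb), and Tpm2, beta-tropomyosin (31847), and the lowest were Myh3 (11.4), Tnnc1 (9.59) and Myh7 (1.34). Mb held rank 31 of 40 in pups and rank 2 in adults. The perinatal Myh8 had 17897 per kb in adults, next to 18346 for the adult fast myosin Myh1.

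Of the 5 comparisons with wild type, the most muscle genes were called in KEAP1-deficient adults. There 5 of the 40 muscle genes rose and 32 fell, where 46.8% of all genes tested were called (24.1% higher, 22.7% lower). Their median log2 fold change was -1.09, against -0.01 over all genes. The 40 genes together took 3.87% ± 0.607 of counts (SD, n = 4) against 8.41% ± 0.581 in wild-type adults. Counts are relative, so in bulk RNA fewer muscle cells, less muscle RNA per cell and more RNA from other cells cannot be told apart.

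In L30F heterozygous adults 14 muscle genes rose and 0 fell, against 9.70% of all genes called (4.80% higher, 4.90% lower), and the members' median was 0.44 against 0.01 over all genes. In L30F homozygous adults 6 rose and 5 fell, against 22.3% called (11.8% higher, 10.4% lower), with a median of 0.01 against -0.01. The 11 of 40 called there is near the share of all genes. In L30F homozygous pups 3 rose and 13 fell, against 39.2% called (17.1% lower, and 4632 of 21007 genes higher), with a median of -0.29 against -0.03. In KEAP1-deficient pups 6 rose and 15 fell, against 49.5% called (26.3% higher, 23.2% lower), with a median of -0.20 against -0.05. Omitting wild-type library 2 or 3 left 10 or 8 calls in L30F homozygous pups (6576 or 6507 over all genes, against 8225), and omitting homozygote library 1, 2 or 3 gave 10, 11 or 20 (7779, 6835 or 7542 over all genes). The count in heterozygotes was 5, 8 and 6 without wild-type library 1, 2 and 3 (623, 1151 and 968 over all genes, against 1927), 5 and 6 without heterozygote library 1 and 3 (1380 and 1441 over all genes), and 11 to 19 without any other single adult library. With the mean of the sarcomere genes described next as a covariate, none of the 14 calls in heterozygotes was kept, and 150 of all genes were called. In homozygous adults the count was 7 without wild-type library 1 or 2 (3057 or 3276 over all genes, against 4420). In both pup comparisons the share of members called was near that of all genes, and the members split by kind of gene, as described below.

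The 22 sarcomere genes that are no members, such as Tcap and the myomesins, gave a second reading of muscle RNA per library. In adults 21 of them were listed and used. Their mean log2 value was 12.06 ± 0.14 (SD, n = 4) in wild-type adults, 12.50 ± 0.15 in heterozygotes, 12.12 ± 0.17 in homozygotes and 11.13 ± 0.26 in KEAP1-deficient adults. In pups it was 10.57, 10.87 and 10.89 in the wild-type libraries, 10.82, 10.89 and 11.05 in L30F homozygotes and 10.91, 10.90 and 11.18 in KEAP1-deficient libraries. On this reading L30F homozygous pups overlapped with wild type and KEAP1-deficient pups lay just above it. Among adults the KEAP1-deficient libraries lay below and the heterozygotes above wild type. In pups the members' share of all counts differed from this reading. It was 5.52 to 6.29% in wild type and 4.14 to 5.47% in L30F homozygotes, without overlap. In KEAP1-deficient pups it was 4.77 to 5.83%, which overlapped with wild type. The pup means of the other sarcomere genes also pooled opposite changes. Of these genes 5 rose and 5 fell in L30F homozygotes, and 6 rose and 3 fell in KEAP1-deficient pups. In KEAP1-deficient adults 16 of the 21 other sarcomere genes tested fell and 1 rose. Mypn (log2 fold change -1.53) and Myom2 (-1.67) were among those that fell. In heterozygous adults 9 of 21 tested rose and 0 fell, with Mybpc1 (0.54), Myot (0.62) and Lmod2 (1.37) leading by adjusted p.

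Markers of smooth muscle, the other muscle of the wall, fell in part in KEAP1-deficient groups. Their mean log2 value was 10.97, 11.46, 11.16 and 10.66 in the wild-type adult libraries and 10.73, 9.64, 9.65 and 9.70 in the KEAP1-deficient ones, where 9 of 10 markers fell. It was 11.09, 10.78, 10.03 and 10.49 in heterozygous adults, where 0 of 10 were called, and 10.43, 11.06, 10.66 and 10.75 in homozygous ones, where 1 fell. In pups it was 11.85, 11.81 and 11.84 in wild type, 10.81, 11.95 and 10.11 in L30F homozygotes, where 3 of 10 fell, and 10.23, 10.78 and 10.34 in KEAP1-deficient libraries, where 5 of 10 fell. L30F homozygous pup library 2 lay above wild type and the other 2 below. Fibroblast markers averaged 13.24 ± 0.09 in wild-type and 14.10 ± 0.13 in KEAP1-deficient adults, where 5 of 7 rose, and 13.68 ± 0.32 and 13.69 ± 0.22 in heterozygous and homozygous adults, where 2 rose and where 4 rose and 1 fell. In pups the fibroblast mean was 14.48 ± 0.07 in wild type, 13.40 ± 0.13 in L30F homozygotes and 13.00 ± 0.43 in KEAP1-deficient libraries, with 6 of 7 lower by the test in each. Squamous markers averaged 13.57 ± 0.24, 14.53 ± 0.13 and 14.91 ± 0.09 in those 3 pup groups, and 4 of 5 rose and 1 fell in both mutants. In adults they averaged 15.63 ± 0.08 in wild type, 15.48 ± 0.23 in heterozygotes, 15.71 ± 0.06 in homozygotes and 14.89 ± 0.27 in KEAP1-deficient libraries. The 5 squamous markers did not move together there: 2 rose and 2 fell in homozygotes and in KEAP1-deficient adults, with log2 fold changes from -6.09 to 3.67 in the latter. Markers of enteric nerve and glia averaged 7.47 ± 0.09, 6.96 ± 0.06 and 6.68 ± 0.22 in wild-type, L30F homozygous and KEAP1-deficient pups, where 3 and 5 of 6 fell in the mutants. In adults they averaged 6.11 ± 0.22 in wild type, 6.29 ± 0.32 in heterozygotes, where 1 rose, 5.76 ± 0.13 in homozygotes, where 1 fell, and 5.41 ± 0.25 in KEAP1-deficient libraries, where 3 fell. The part of these shifts in the muscle results was not tested.

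**Figure D1:**
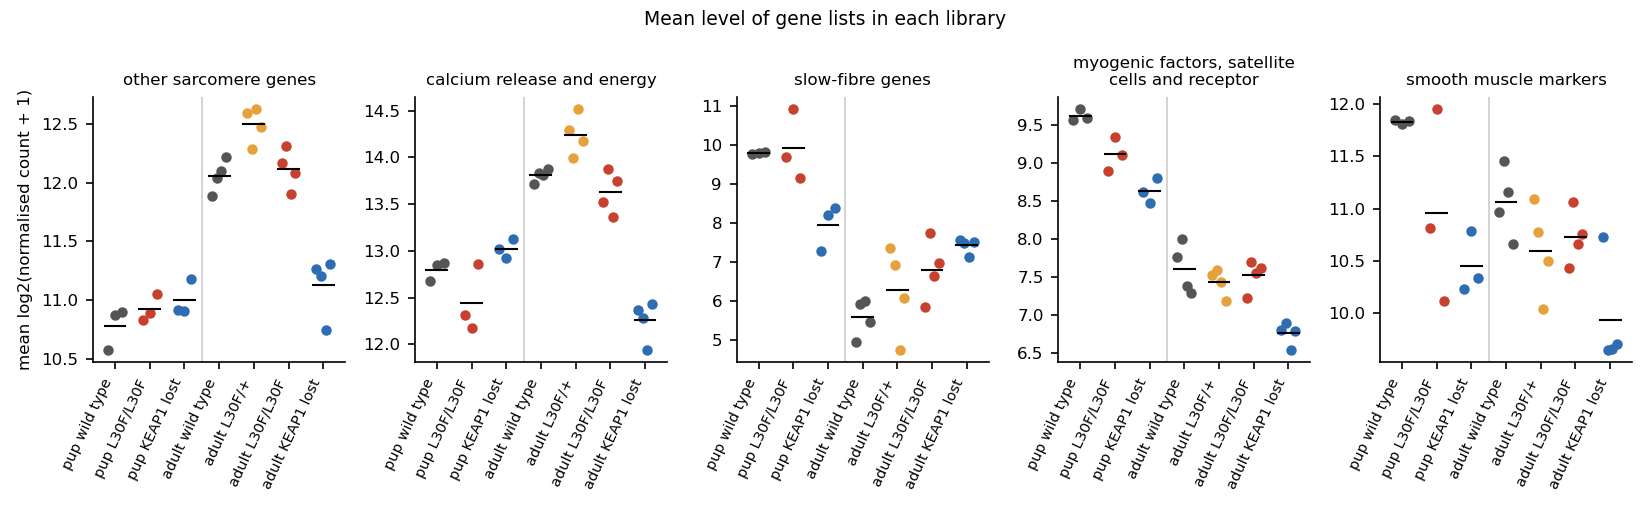
Mean log2 value of 5 gene lists in each library, by genotype group (points are libraries; both experiments shown, each normalised on its own). Among adults the other sarcomere genes lie lowest in KEAP1-deficient and highest in L30F heterozygous libraries, and the smooth muscle markers lie lower in KEAP1-deficient than in wild-type pups; in adults 1 KEAP1-deficient library (10.73) lies within the wild-type range and the other 3 below it.

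The fast myosin Myh1 (ENSMUSG00000056328, myosin of fast IIx fibres) rose in both pup mutants. Wild-type pups had 20496, 20841 and 22768 normalised counts, L30F homozygotes 48486, 47782 and 84124 and KEAP1-deficient pups 81801, 102151 and 97705. All 6 mutant libraries lay above the 3 wild-type libraries. Myh1 rose 2.72-fold in L30F homozygotes (log2 fold change 1.44, SE 0.20, adjusted p = 0.000457) and 4.38-fold in KEAP1-deficient pups (log2 fold change 2.13, SE 0.20, adjusted p = 2.47e-05). In adults wild-type libraries had 103764, 119981, 111776 and 92006, heterozygotes 199009, 157170, 194077 and 155296, homozygotes 119732, 173174, 118683 and 131141 and KEAP1-deficient libraries 55216, 62307, 47832 and 67524. Every heterozygote library was above every wild-type library and every KEAP1-deficient library was below, while homozygotes overlapped with wild type. Myh1 rose in heterozygotes (log2 fold change 0.72, SE 0.14, adjusted p = 0.00589), fell in KEAP1-deficient adults (log2 fold change -0.88, SE 0.14, adjusted p = 8.33e-05) and was not called in homozygotes (log2 fold change 0.33, SE 0.14, adjusted p = 0.0984).

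Myh8 (ENSMUSG00000055775, the perinatal myosin) was called in neither pup mutant. Wild-type pups had 100208, 102541 and 100640, L30F homozygotes 76381, 73943 and 96466 and KEAP1-deficient pups 88258, 83543 and 111598. All 3 L30F libraries were below wild type and the KEAP1-deficient libraries overlapped with it, with no call in either (log2 fold change -0.31, adjusted p = 0.0796, and -0.11, adjusted p = 0.501). In adults wild type had 100759, 100514, 99889 and 114839, heterozygotes 156843, 103627, 158252 and 125051, homozygotes 91142, 116806, 79146 and 99461 and KEAP1-deficient libraries 40199, 40079, 28946 and 49898. The KEAP1-deficient libraries were all lower than the rest, and Myh8 fell there (log2 fold change -1.41, SE 0.16, adjusted p = 4.14e-06).

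Myh3 (ENSMUSG00000020908, the embryonic myosin, also made by regenerating fibres) went in opposite directions at the 2 ages. Wild-type pups had 16371, 16556 and 15099.5, L30F homozygotes 12702, 19609 and 5848 and KEAP1-deficient pups 2046, 2876 and 3933. The KEAP1-deficient libraries were all lower than wild type, and Myh3 fell 5.61-fold (log2 fold change -2.49, SE 0.43, adjusted p = 0.00236), while the L30F libraries lay on both sides of wild type (log2 fold change -0.50, adjusted p = 0.407). In wild-type adults Myh3 was at 56.9, 70.7, 97.7 and 38.98, in heterozygotes at 175, 125, 41.2 and 88.9, in homozygotes at 149.9, 298, 222 and 270.2 and in KEAP1-deficient libraries at 130.1, 202, 153 and 175. Every homozygote and every KEAP1-deficient adult library was above every wild-type library, at levels far below those of pups. Myh3 rose in L30F homozygous adults (log2 fold change 1.84, SE 0.37, adjusted p = 0.00279) and in KEAP1-deficient adults (log2 fold change 1.37, SE 0.37, adjusted p = 0.00669).

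Myh2 (ENSMUSG00000033196, fast IIa myosin) had 369, 714 and 675 in wild-type pups, 1844, 1772 and 1659 in L30F homozygotes and 835, 703 and 1501 in KEAP1-deficient pups. The L30F libraries were all higher than wild type, and Myh2 rose there (log2 fold change 1.64, SE 0.32, adjusted p = 0.00481). The KEAP1-deficient libraries overlapped with wild type in pups (0.77, adjusted p = 0.083). In adults Myh2 spread widely within groups, from 134 to 3367 in heterozygotes and 979.6 to 5642 in homozygotes, and was called in no comparison with wild type. Myh4 (ENSMUSG00000057003, fast IIb myosin) had 9331, 7606 and 9183 in wild-type pups, 7562, 1261 and 2871 in L30F homozygotes and 5515, 2241 and 3450.3 in KEAP1-deficient pups. Both mutant groups lay below wild type without passing the test (-1.52, adjusted p = 0.107, and -1.31, adjusted p = 0.137). In adults Myh4 had 7272, 3779, 3596 and 19814 in wild type, 22715, 15461, 34253 and 13802 in heterozygotes, 10262, 7223, 9072 and 3578 in homozygotes and 2752, 511, 601 and 568 in KEAP1-deficient libraries. Myh4 fell in KEAP1-deficient adults (log2 fold change -3.00, SE 0.63, adjusted p = 0.00144), where library 1 stood well above the other 3.

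All 6 heavy chains have nearly the same coding length (5805 to 5826 bases), so their share of the summed heavy chain counts describes the make-up of each library. If all 6 are read solely in striated muscle, the share does not depend on how much muscle RNA a library held. In wild-type pups Myh8 made up 68.1% ± 0.699 (SD, n = 3) and Myh1 14.4% ± 0.768. In KEAP1-deficient pups Myh8 made up 48.1% ± 3.94 and Myh1 47.97% ± 4.67, and in L30F homozygous pups Myh8 made up 50.6% ± 0.939 and Myh1 36.3% ± 6.68. The Myh1 share ranged from 13.9 to 15.3% in wild-type pups, 32.1 to 44.00% in L30F homozygotes and 44.8 to 53.3% in KEAP1-deficient pups, with no overlap between wild type and either mutant group. Wild-type adults had a Myh1 share of 48.4% ± 5.51 (SD, n = 4), close in value to that of the KEAP1-deficient pups. In adults the Myh1 share was 52.8% ± 2.49 in heterozygotes, 55.7% ± 1.75 in homozygotes and 58.6% ± 2.63 in KEAP1-deficient libraries. The homozygote and KEAP1-deficient shares lay above the whole wild-type range of 40.5 to 52.7%. The Myh3 share was 10.8% ± 0.566 in wild-type pups, 8.28% ± 5.07 in L30F homozygotes and 1.48% ± 0.328 in KEAP1-deficient pups. In adults it was 0.0300% ± 0.0116 in wild type, 0.0328% ± 0.0164 in heterozygotes, 0.0963% ± 0.0200 in homozygotes and 0.168% ± 0.0331 in KEAP1-deficient libraries, so it was under 1% in every adult group.

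**Figure D2:**
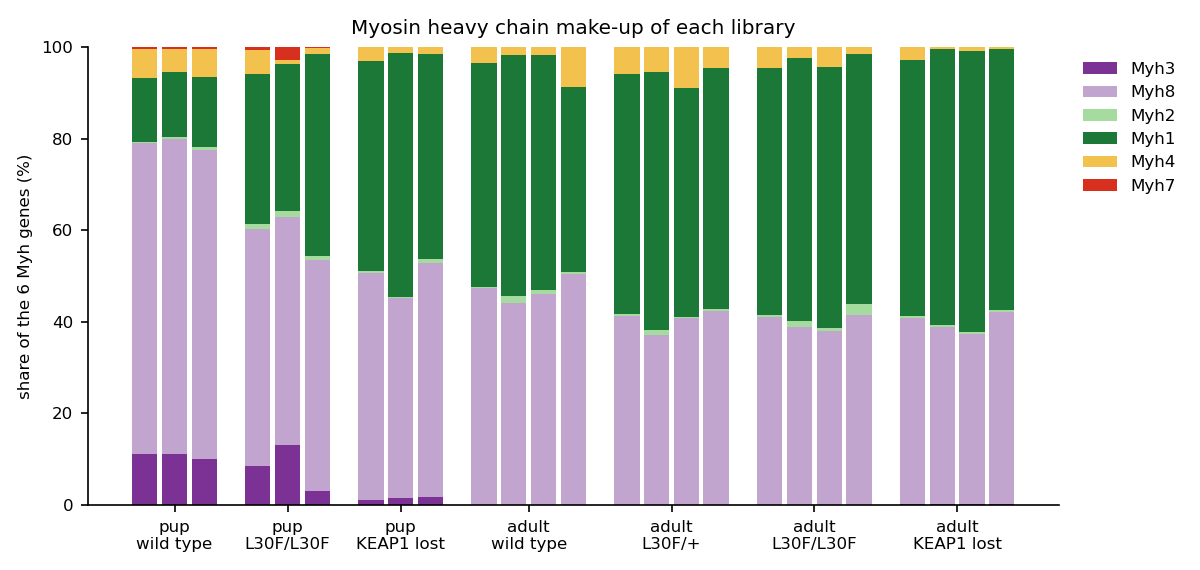
Share of each of the 6 myosin heavy chain genes in their summed normalised counts, one stacked bar per library, in percent, grouped by genotype. The Myh1 part is 13.9 to 15.3% in wild-type pups and at least 32.1% in every mutant pup library, and Myh8 and Myh1 together fill most of every bar.

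Myh3, Myh2, Myh1, Myh4 and Myh8 lie in this order along a single cluster on chromosome 11. The 250 bases before the annotated start (RefSeq, GRCm38.p6, plus strand, an older build than the GRCm39 used for the counts) are shown for the 3 of them whose shares differed most in pups: Myh3 (chr11:67078050-67078299), Myh1 (chr11:67199852-67200101) and Myh8 (chr11:67276874-67277123). Capitals mark a match to CAGCTG (an E-box that myogenic factors can bind), TGACNNNGC (the core of the NRF2 element) or the MEF2 element (CTA, then 4 bases that are each A or T, then TAG), searched on both strands.
Myh3: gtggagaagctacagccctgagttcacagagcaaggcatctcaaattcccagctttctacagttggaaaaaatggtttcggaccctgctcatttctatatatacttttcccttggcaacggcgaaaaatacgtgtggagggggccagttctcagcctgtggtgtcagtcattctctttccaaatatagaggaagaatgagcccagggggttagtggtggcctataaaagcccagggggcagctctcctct
Myh1: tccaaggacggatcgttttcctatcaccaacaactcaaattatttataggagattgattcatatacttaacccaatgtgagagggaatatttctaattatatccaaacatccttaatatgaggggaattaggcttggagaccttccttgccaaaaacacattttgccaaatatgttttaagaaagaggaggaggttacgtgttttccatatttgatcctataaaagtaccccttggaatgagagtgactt
Myh8: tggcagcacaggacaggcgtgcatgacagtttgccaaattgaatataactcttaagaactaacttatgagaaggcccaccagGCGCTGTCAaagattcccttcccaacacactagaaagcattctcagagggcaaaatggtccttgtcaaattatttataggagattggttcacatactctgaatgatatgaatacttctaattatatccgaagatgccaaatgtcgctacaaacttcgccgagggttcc
The windows of Myh3 and Myh1 held none of the 3 motifs and that of Myh8 held 1 match to TGACNNNGC. Among the 36 RefSeq windows found for 32 of the 40 genes (3 genes have more than 1 start, and windows of the same gene can overlap), 17 (47.2%) held CAGCTG, 6 (16.7%) TGACNNNGC and 2 (5.56%) the MEF2 element. Of all 32851 windows of this length, 13.0%, 10.2% and 0.508% did. A match describes letters only, and no match says only that these letters are not in this window.

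Actc1 (ENSMUSG00000068614), cardiac actin, which developing skeletal muscle also makes, was lower in KEAP1-deficient pups too. Wild-type pups had 14507, 14425 and 14176, L30F homozygotes 5968, 9478 and 3688 and KEAP1-deficient pups 2728, 963 and 2418. All mutant pup libraries were lower than wild type. Actc1 fell 7.76-fold in KEAP1-deficient pups (log2 fold change -2.96, SE 0.46, adjusted p = 0.00152) and missed the threshold in L30F homozygotes (-1.28, adjusted p = 0.067). Its share of the summed Actc1 and Acta1 counts was 12.3% ± 1.18 in wild-type, 6.38% ± 3.66 in L30F homozygous and 1.71% ± 0.770 in KEAP1-deficient pups (SD, n = 3). In adults Actc1 had 10307, 10197, 10228 and 12480.1 in wild type, 18168, 16953, 16551 and 19618 in heterozygotes, 7441, 15106, 10949 and 7811 in homozygotes and 6721, 8479, 5637 and 9863 in KEAP1-deficient libraries. It rose in heterozygotes (log2 fold change 0.72, SE 0.20, adjusted p = 0.0333) and fell in KEAP1-deficient adults (log2 fold change -0.52, SE 0.20, adjusted p = 0.0421), and leaving out any single heterozygote or any single wild-type library from 1 to 3 ended the first call, and 8 single libraries the second (adjusted p up to 0.0982 and up to 0.141).

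The slow-fibre troponins rose in KEAP1-deficient adults, while most muscle genes fell there. Tnnt1 (ENSMUSG00000064179), slow troponin T, had 61.6, 189.5, 191 and 104 in wild-type adults, 475, 307, 71.5 and 101 in heterozygotes, 121, 376, 243 and 187 in homozygotes and 737, 637, 659 and 697 in KEAP1-deficient libraries. Tnni1 (ENSMUSG00000026418), slow troponin I, had 42.00, 77.1, 98.9 and 144 in wild type, 174, 159, 35.1 and 148 in heterozygotes, 148, 645, 205 and 425 in homozygotes and 325, 469.7, 330.4 and 416 in KEAP1-deficient libraries. Tnnc1 (ENSMUSG00000091898), the troponin C of slow fibres and heart, had 3.39, 4.06, 4.36 and 6.72 in wild type, 19.5, 8.60, 0 and 11.9 in heterozygotes, 11.04, 28.2, 6.11 and 6.97 in homozygotes and 110.4, 104, 74.3 and 103 in KEAP1-deficient libraries. For all 3 genes every KEAP1-deficient adult library was above every wild-type library. In KEAP1-deficient adults Tnnc1 rose 17.8-fold (log2 fold change 4.15, SE 0.70, adjusted p = 0.000157), Tnnt1 rose 5.49-fold (log2 fold change 2.46, SE 0.54, adjusted p = 0.00176) and Tnni1 rose 4.57-fold (log2 fold change 2.19, SE 0.53, adjusted p = 0.00356). The other sarcomere genes themselves separate the KEAP1-deficient adults from wild type. With them as a covariate, the log2 fold change was 5.14 (adjusted p = 0.0602) for Tnnc1. It was 2.66 (adjusted p = 0.208) for Tnnt1 and 3.09 (adjusted p = 0.132) for Tnni1. In L30F homozygous adults Tnni1 alone of the 3 was called (log2 fold change 1.86, SE 0.53, adjusted p = 0.0223). That call ended without wild-type library 1 or 2 or homozygote library 2 or 4 (adjusted p up to 0.0764).

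In pups the same genes were lower after KEAP1 loss. Tnnt1 had 1050.5, 1031 and 1064 in wild-type pups, 796, 1469.7 and 671 in L30F homozygotes and 343, 381 and 499 in KEAP1-deficient pups. Tnni1 had 1172, 1051 and 1086 in wild type, 944, 1797 and 586 in L30F homozygotes and 138, 289 and 352 in KEAP1-deficient pups. Tnnc1 had 521, 485 and 468 in wild type, 381, 1158 and 212 in L30F homozygotes and 51.2, 165 and 96.1 in KEAP1-deficient pups. All KEAP1-deficient pup libraries were below wild type, and in L30F homozygotes library 2 was above and libraries 1 and 3 were below it. In KEAP1-deficient pups Tnnc1 fell (log2 fold change -2.38, SE 0.64, adjusted p = 0.0176), as did Tnni1 (log2 fold change -2.19, SE 0.46, adjusted p = 0.00552) and Tnnt1 (log2 fold change -1.38, SE 0.26, adjusted p = 0.0025). The Tnnc1 call ended without KEAP1-deficient library 1 (adjusted p = 0.0567). In L30F homozygous pups none of the 3 was called, and without library 2 Tnnt1 was (-0.52, adjusted p = 0.0276).

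The other slow-fibre genes, Myh7 and Myoz2, were not called in KEAP1-deficient adults. Myh7 (ENSMUSG00000053093), the slow myosin, had 774, 655 and 744 in wild-type pups, 1046, 4294 and 215 in L30F homozygotes and 29.9, 62.1 and 116 in KEAP1-deficient pups. It fell in KEAP1-deficient pups (log2 fold change -3.57, SE 1.05, adjusted p = 0.0273), but leaving out any wild-type library or KEAP1-deficient library 1 or 2 ended the call (adjusted p up to 0.0890). In adults Myh7 was near the floor, with 4.74, 13.9, 11.2 and 1.34 in wild type and 11.8, 8.79, 6.01 and 9.46 in KEAP1-deficient libraries, and was not called (0.48, adjusted p = 0.675). Myoz2, a Z-disc protein of slow fibres, had 423, 749, 860.5 and 606 in wild-type adults and 1066, 1837, 1038 and 1475 in L30F homozygotes, with no overlap. It rose in homozygotes (log2 fold change 1.04, SE 0.28, adjusted p = 0.0145), although not without wild-type library 1 (adjusted p = 0.0511), and was not called in KEAP1-deficient adults (-0.11, adjusted p = 0.785) or in either pup comparison.

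Each slow troponin can be read as a share of the counts of itself and its fast partner. This removes the amount of muscle RNA only if both genes are read solely in striated muscle, which was not tested. The Tnnt1 share of Tnnt1 and Tnnt3 was 0.632% ± 0.295 (SD, n = 4) in wild-type adults, 0.786% ± 0.601 in heterozygotes, 1.05% ± 0.399 in homozygotes and 7.27% ± 1.03 in KEAP1-deficient adults. The Tnni1 share of Tnni1 and Tnni2 was 0.836% ± 0.368, 0.962% ± 0.528, 3.14% ± 1.65 and 8.95% ± 1.40, and the Tnnc1 share of Tnnc1 and Tnnc2 0.0554% ± 0.0163, 0.0729% ± 0.0498, 0.148% ± 0.105 and 3.31% ± 0.277. All 3 shares were above the whole wild-type range in every KEAP1-deficient adult library. In KEAP1-deficient pups the shares of Tnnt1 (2.66% ± 0.390), Tnni1 (3.41% ± 1.32) and Tnnc1 (1.30% ± 0.799) were all below the wild-type ones (5.93% ± 0.248, 11.9% ± 0.976 and 4.58% ± 0.479, SD, n = 3).

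**Figure D3:**
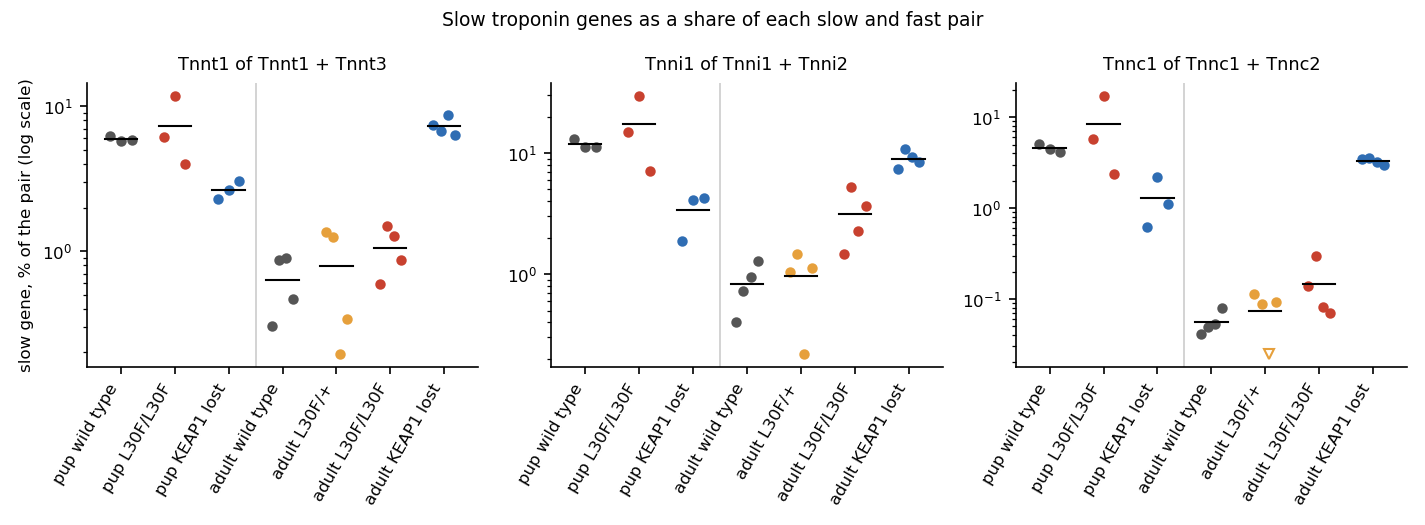
Share of each slow troponin gene in the counts of itself and its fast partner, in percent on a log scale, by genotype group. Points are libraries, lines are group means, and the open triangle marks a heterozygote library with 0 counts of Tnnc1; KEAP1-deficient libraries lie below wild type in pups and above wild type in adults in all 3 panels.

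The 250 bases before the start of the 3 slow troponin genes, which rose together in KEAP1-deficient adults, are Tnnt1 (chr7:4515976-4516225, minus strand), Tnni1 (chr1:135799171-135799420, plus strand, the first of its annotated starts) and Tnnc1 (chr14:31208062-31208311, plus strand), from RefSeq, GRCm38.p6, with motif matches in capitals as for the myosins.
Tnnt1: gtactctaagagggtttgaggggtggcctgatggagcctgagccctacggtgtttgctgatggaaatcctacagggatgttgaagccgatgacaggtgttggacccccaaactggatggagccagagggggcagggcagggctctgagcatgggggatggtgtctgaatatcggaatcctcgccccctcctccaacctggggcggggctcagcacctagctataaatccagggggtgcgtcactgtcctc
Tnni1: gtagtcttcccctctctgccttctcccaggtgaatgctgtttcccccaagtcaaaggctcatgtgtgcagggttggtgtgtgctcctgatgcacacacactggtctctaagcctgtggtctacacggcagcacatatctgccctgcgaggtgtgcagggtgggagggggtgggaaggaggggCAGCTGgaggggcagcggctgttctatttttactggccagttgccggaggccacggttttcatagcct
Tnnc1: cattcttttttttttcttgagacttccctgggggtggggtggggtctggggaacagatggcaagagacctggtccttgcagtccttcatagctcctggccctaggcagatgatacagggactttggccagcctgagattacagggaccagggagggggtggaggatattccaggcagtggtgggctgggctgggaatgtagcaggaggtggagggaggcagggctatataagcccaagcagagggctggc
Only the Tnni1 window held a match, to CAGCTG.

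Among the fast-fibre thin filament, light chain and Z-disc genes, all 9 fell in KEAP1-deficient adults (median -1.28), and 6 of 9 rose and 0 fell in heterozygous adults (median 0.64). Mylk2 (ENSMUSG00000027470), the kinase that phosphorylates the skeletal myosin light chain, had 1689, 1983, 1618 and 1628 in wild-type adults, 2329.7, 1473, 2955 and 2227 in heterozygotes, 652, 1134, 806 and 954 in homozygotes and 136, 173, 205 and 172 in KEAP1-deficient libraries. The homozygotes were below wild type and the KEAP1-deficient libraries below the homozygotes, with no overlap. Mylk2 fell 10.1-fold in KEAP1-deficient adults (log2 fold change -3.34, SE 0.19, adjusted p = 4.2e-09) and 1.98-fold in homozygotes (log2 fold change -0.99, SE 0.19, adjusted p = 0.00238). In pups it had 693, 937 and 798 in wild type, 942, 1145 and 1807 in L30F homozygotes and 1817, 3302 and 2317 in KEAP1-deficient libraries. All mutant pup libraries were above wild type, and Mylk2 rose in KEAP1-deficient pups (log2 fold change 1.58, SE 0.28, adjusted p = 0.00184) and missed the threshold in L30F homozygotes (0.64, adjusted p = 0.109).

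The fast light chains fell in both pup mutants. Myl1, an essential light chain, had 19470.5, 19688 and 21414 in wild-type pups, 12519, 13450.5 and 15781 in L30F homozygotes and 10868, 7433 and 11272 in KEAP1-deficient pups. All mutant libraries were below all wild-type libraries. Myl1 fell in L30F homozygotes (-0.54, adjusted p = 0.0185; not without wild-type library 3 or homozygote library 1 or 2, adjusted p up to 0.0634) and in KEAP1-deficient pups (log2 fold change -1.06, SE 0.15, adjusted p = 0.000316). Mylpf, the regulatory light chain of fast fibres, had 20119.6, 21734 and 23466 in wild type, 13743, 14350.3 and 17465 in L30F homozygotes and 13852, 12413 and 15145 in KEAP1-deficient pups. It fell in KEAP1-deficient pups (log2 fold change -0.66, SE 0.11, adjusted p = 0.000631) and in L30F homozygotes (log2 fold change -0.52, SE 0.11, adjusted p = 0.00359). In heterozygous adults Myl1 rose (log2 fold change 0.70, SE 0.10, adjusted p = 0.000492), with 19971, 19143, 20608 and 19030.1 against 11237, 12789, 12186 and 12138 in wild type. Mylpf (0.64, adjusted p = 0.00775), Tnnc2, fast troponin C (0.70, adjusted p = 0.0124), and the Z-disc gene Myoz1 (0.73, adjusted p = 0.00663) rose there too. In homozygous adults Myl1 rose as well (0.36, adjusted p = 0.0162), though not without wild-type library 1 (adjusted p = 0.0546). The 4 heterozygote calls named here and that of Myh1 held without any single library, though not with the sarcomere covariate, while the other 9 calls in heterozygotes, among them Acta1 (0.52, adjusted p = 0.0252) and Tnnt3 (0.53, adjusted p = 0.0207), each ended without at least 3 of the 16 adult libraries in turn.

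Fast troponins and actin fell in KEAP1-deficient adults by 0.97 to 1.55 on the log2 scale. Tnnc2 had 8313, 8248, 8211 and 8547 in wild-type adults and 3099.8, 2780.5, 2227 and 3388 in KEAP1-deficient libraries, without overlap (log2 fold change -1.55, SE 0.16, adjusted p = 9.49e-07). Acta1 had 129084, 147184, 140534 and 133859 in wild-type and 78327, 74050.5, 53926 and 78626 in KEAP1-deficient adults, again without overlap (log2 fold change -0.97, SE 0.14, adjusted p = 2.6e-05). Tnni2, fast troponin I, had 10387, 10575, 10421 and 11121 in wild-type and 4046, 3895, 3263 and 4522 in KEAP1-deficient adults. Tnnt3, fast troponin T, had 20322, 21672, 21166 and 22199.5 in wild-type and 9246, 8833, 6952 and 10364 in KEAP1-deficient adults. Myoz1 had 2534, 2561, 2702 and 3197 in wild-type and 1063, 1208, 935 and 1239 in KEAP1-deficient adults. None of these 3 overlapped between the groups, and they fell (-1.44, -1.28 and -1.31 in this order). In L30F homozygous pups Tnnc2 (-0.61), Tnni2 (-0.56) and Tnnt3 (-0.36) fell, and of these only the Tnnc2 call (adjusted p = 0.00815) held without any single library. Acta1 and the actin crosslinker Actn3 were called in neither pup comparison.

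All 5 sarcomere genes of all fibres fell in KEAP1-deficient adults: Ttn (titin, -1.26), Neb (nebulin, -1.14), Tpm2 (-1.10), Tpm1 (-0.88) and Actn2 (-0.49), the last only with KEAP1-deficient library 3 included (adjusted p = 0.0569 without it). Ttn had 731548, 840503, 839979 and 880457 in wild-type adults and 392351, 361863, 249102 and 389425 in KEAP1-deficient libraries. Every KEAP1-deficient library was under the lowest wild-type library (log2 fold change -1.26, SE 0.15, adjusted p = 4.17e-06). Neb had 83508, 94161, 89335 and 100125 in wild-type and 46222, 41854, 33329.8 and 45810 in KEAP1-deficient adults, and Tpm2 26845, 28671, 26601 and 26417 and 13533, 13190.1, 9811 and 14585, both without overlap. In pups the changes were small: in KEAP1-deficient pups Tpm1 (-0.27), Tpm2 (-0.28) and Actn2 (-0.51) fell, and Ttn (0.29, adjusted p = 0.0748) and Neb (-0.10, adjusted p = 0.588) were not called. The pup calls of Tpm1 and Tpm2 ended without any of at least 4 single libraries (adjusted p up to 0.123 and 0.112). In L30F homozygous pups Tpm1 (-0.31) and Tpm2 (-0.31) fell, also not without wild-type library 2 or 3 or homozygote library 1 or 2. In L30F homozygous adults Actn2 was the only one of the 5 called (log2 fold change 0.63, SE 0.15, adjusted p = 0.00852), with 13242, 19876, 13245 and 15944 against 8235, 10748, 10838 and 10189.8 in wild type. Tpm1 and Tpm2 are also made by smooth muscle, whose marker levels are given above, and the part of smooth muscle in these values was not tested.

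**Figure D4:**
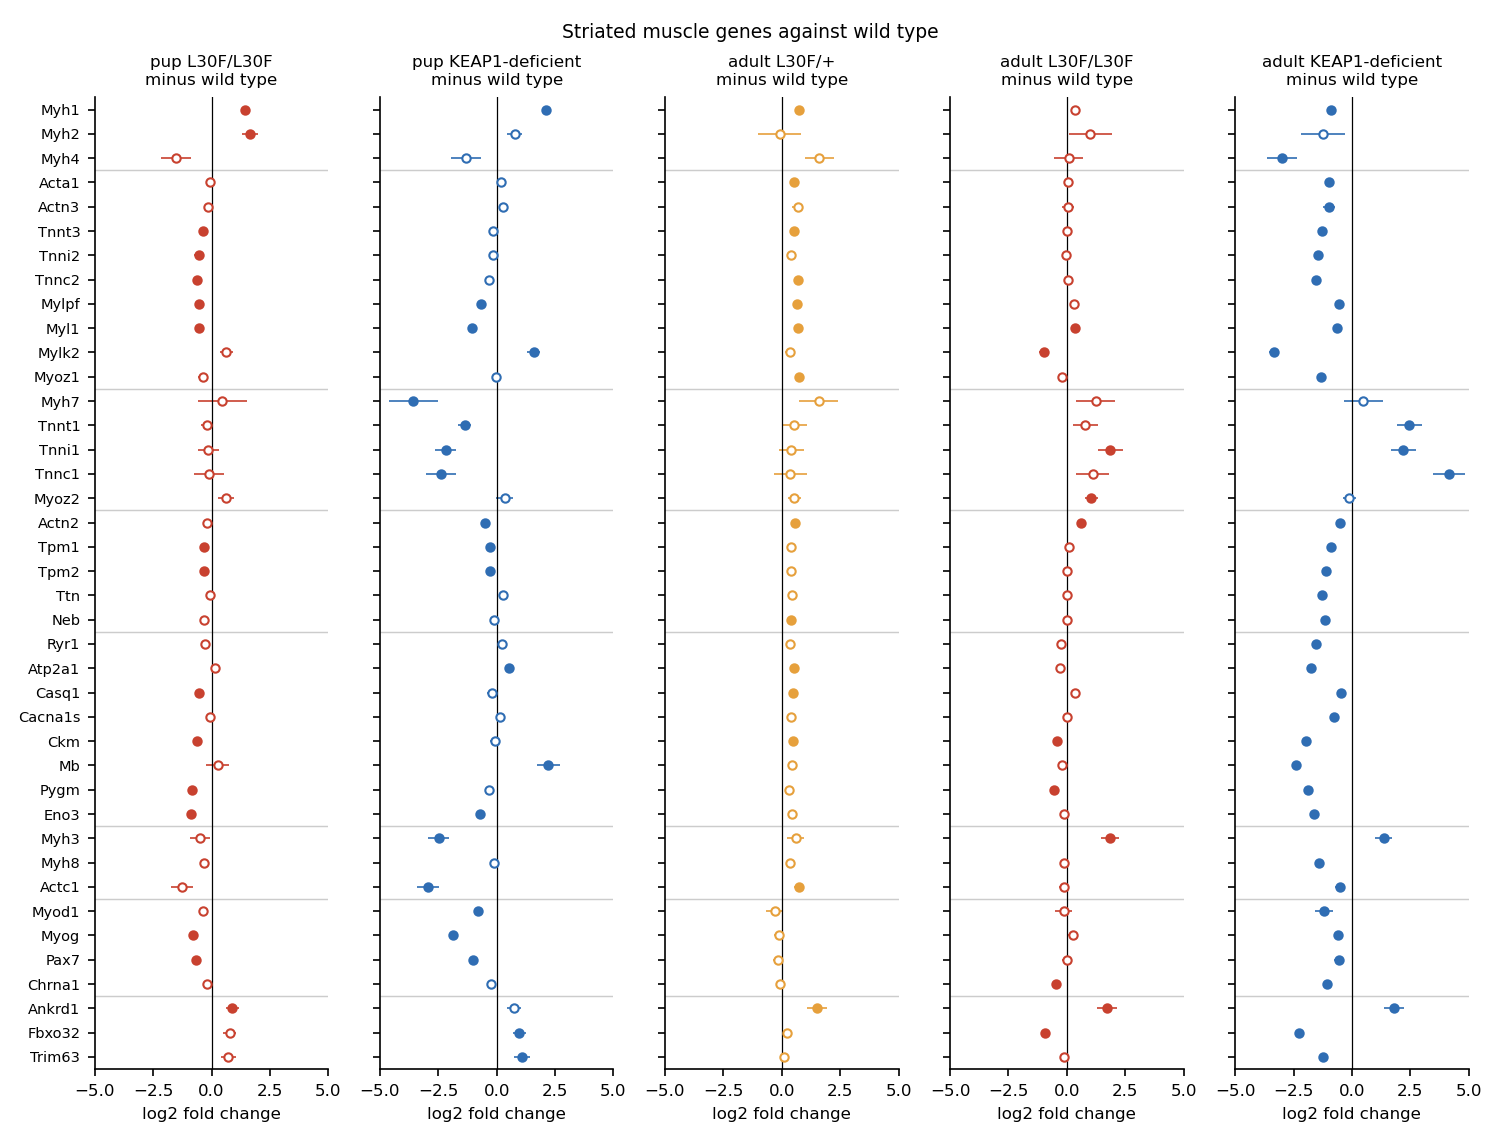
Log2 fold change of the 40 genes against wild type of the same experiment, in rows grouped by kind of gene, with 1 panel for each of the 5 comparisons. Filled points passed the test, open points did not, and bars are standard errors; in KEAP1-deficient adults most points lie left of 0 while Tnnt1, Tnni1, Tnnc1, Myh3 and Ankrd1 lie right of it.

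All 8 genes of calcium release and energy supply fell in KEAP1-deficient adults, with a median of -1.68, as did all 18 genes of the same kind that are no members (median -1.37), led by Dmd (-1.42), Pfkm (-1.59) and Phka1 (-1.62). Mb (ENSMUSG00000018893) had 16064, 19916, 18175 and 17704 in wild-type adults, 25510, 21824, 28327 and 21123 in heterozygotes, 13000.3, 17996, 12955 and 20246 in homozygotes and 3414, 3506, 3127 and 3715 in KEAP1-deficient libraries. The KEAP1-deficient libraries lay far below all other adult libraries, and Mb fell 5.21-fold (log2 fold change -2.38, SE 0.14, adjusted p = 2.72e-09). In pups Mb had 295, 537 and 553 in wild type, 316, 414 and 1147 in L30F homozygotes and 1861, 2302 and 2046 in KEAP1-deficient libraries. There the KEAP1-deficient libraries were the highest, and Mb rose 4.64-fold (log2 fold change 2.21, SE 0.48, adjusted p = 0.00661), while L30F homozygotes overlapped with wild type (0.26, adjusted p = 0.704).

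Ckm, the muscle creatine kinase, had 31143, 32707, 31817 and 39363 in wild-type adults and 8766, 8501, 7281 and 9588 in KEAP1-deficient libraries (log2 fold change -1.98, SE 0.14, adjusted p = 2.68e-08). Atp2a1, the calcium pump of fast fibres, had 34733, 38918, 38625 and 40299 in wild-type and 11812, 10805, 9619 and 13429 in KEAP1-deficient adults (log2 fold change -1.75, SE 0.14, adjusted p = 8.73e-08). Pygm, muscle glycogen phosphorylase, had 21382, 22438, 22118 and 20959.6 in wild-type and 7026, 5822, 4270.4 and 6693 in KEAP1-deficient adults (log2 fold change -1.89, SE 0.16, adjusted p = 1.31e-07). None of the 3 overlapped between the groups. Together with Mb, Eno3 (muscle enolase), Mylk2, Fbxo32 and Trim63, they were the 8 calls of this comparison that remained with the other sarcomere genes as a covariate, a setting in which the calls over all genes fell from 9290 to 1926. Ryr1, the calcium release channel, had 21631, 24589.7, 24869 and 25077 in wild-type and 10137, 7677, 6603 and 8664 in KEAP1-deficient adults, without overlap. The calcium release genes Ryr1 (-1.55), Cacna1s (-0.78) and Casq1 (-0.46) fell as well, the last not without KEAP1-deficient library 3 (adjusted p = 0.0615).

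In L30F homozygous adults Pygm (-0.54, adjusted p = 0.0219) and Ckm (-0.42, adjusted p = 0.0463) fell, and both calls ended without single libraries (adjusted p up to 0.0676 for Pygm, without wild-type library 2 or 3 or homozygote library 3, and up to 0.129 for Ckm, without any of 10 libraries). In pups Eno3 fell in both mutants: wild type had 7765, 7641 and 7925, L30F homozygotes 3928, 3914 and 4913 and KEAP1-deficient pups 4883, 4028 and 5248, with no overlap. The values were log2 fold change -0.88, SE 0.11, adjusted p = 0.000175 in L30F homozygotes and log2 fold change -0.73, SE 0.11, adjusted p = 0.000412 in KEAP1-deficient pups. In L30F homozygous pups Ckm (-0.61) and Casq1 (-0.55) fell, not without wild-type library 2 or 3 or homozygote library 1 or 2 (adjusted p up to 0.0735 and 0.102). Pygm fell there too (log2 fold change -0.85, SE 0.14, adjusted p = 0.000931), and Atp2a1 rose in KEAP1-deficient pups (log2 fold change 0.53, SE 0.14, adjusted p = 0.00953), with 32470.1, 38638 and 39099 against 24032, 26324 and 25784.

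Myogenic factors and the satellite cell gene were lower in mutant pups. Myog (ENSMUSG00000026459), myogenin, which drives myoblast differentiation, had 1586, 1584 and 1505 in wild type, 785, 1178 and 807 in L30F homozygotes and 439, 348 and 506 in KEAP1-deficient pups. The 3 groups did not overlap, with wild type highest and KEAP1-deficient pups lowest. Myog fell 3.65-fold in KEAP1-deficient pups (log2 fold change -1.87, SE 0.17, adjusted p = 1.46e-05) and 1.72-fold in L30F homozygotes (log2 fold change -0.78, SE 0.17, adjusted p = 0.00545). Pax7, the transcription factor of satellite cells (muscle stem cells), had 609.8, 602 and 572 in wild type, 329, 425 and 383 in L30F homozygotes and 306, 261 and 319 in KEAP1-deficient pups. It fell in L30F homozygotes (log2 fold change -0.66, SE 0.11, adjusted p = 0.00134) and in KEAP1-deficient pups (log2 fold change -1.01, SE 0.11, adjusted p = 4.91e-05), all mutant libraries being lower than wild type. Myod1, the myoblast determination factor, had 527, 682 and 624 in wild type, 407, 548 and 453 in L30F homozygotes and 345, 304 and 392 in KEAP1-deficient pups. It fell in KEAP1-deficient pups (log2 fold change -0.82, SE 0.14, adjusted p = 0.000911) but was not called in L30F homozygotes (-0.38, adjusted p = 0.0571).

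The 15 further genes of myogenesis and denervation fell in 10 cases and rose in 1 in KEAP1-deficient pups, and fell in 6 and rose in 1 in L30F homozygous pups. The satellite cell cadherin Cdh15 (-1.50 and -0.83) fell in both, and the fusion gene Mymx fell in KEAP1-deficient pups (-2.62). Gadd45a rose in both (1.85 and 1.58), and which cells of the wall its counts came from was not tested. Of the 14 such genes tested in adults, 3 rose and 0 fell in heterozygotes, against 9.70% of all genes called. In homozygotes 3 rose and 3 fell, against 22.3%, and in KEAP1-deficient adults 3 rose and 9 fell, against 46.8%. In adults Myog had 224, 301, 183 and 170.0 in wild type and 153, 179.7, 129.9 and 118 in KEAP1-deficient libraries, which overlapped. Myod1 had 286, 278, 121 and 76.6 in wild-type and 72.1, 66.3, 56.3 and 94.6 in KEAP1-deficient adults, and Pax7 had 96.2, 118, 77.1 and 121 in wild-type and 63.7, 79.9, 67.6 and 65.5 in KEAP1-deficient adults, and these groups overlapped too. The 3 genes fell in KEAP1-deficient adults (Myog -0.58, adjusted p = 0.0286; Myod1 -1.20, adjusted p = 0.0149; Pax7 -0.55, adjusted p = 0.0362), and all 3 calls ended without wild-type library 1 or without wild-type library 2 (adjusted p up to 0.109, 0.0558 and 0.1002 over all single libraries left out). Chrna1, the alpha subunit of the acetylcholine receptor at the nerve contact, had 347, 419.7, 441 and 369.7 in wild-type and 213, 201, 142 and 194 in KEAP1-deficient adults, without overlap, and fell (log2 fold change -1.08, SE 0.14, adjusted p = 1.01e-05). It also fell in L30F homozygous adults (log2 fold change -0.46, SE 0.14, adjusted p = 0.0256), not without wild-type library 2 or 3 or homozygote library 1 or 3 (adjusted p up to 0.0820).

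Of the atrophy genes, Fbxo32 (atrogin-1) and Trim63 (MuRF1) encode ubiquitin ligases that rise in wasting muscle. Fbxo32 (ENSMUSG00000022358) had 4885, 5805, 5625 and 5105 in wild-type adults, 6330.0, 5098, 7087 and 6613 in heterozygotes, 2749.6, 3467, 2209 and 2955 in homozygotes and 1225, 979, 1126 and 1115 in KEAP1-deficient libraries. Homozygotes lay below wild type and KEAP1-deficient libraries below homozygotes, with no overlap. Fbxo32 fell 4.82-fold in KEAP1-deficient adults (log2 fold change -2.27, SE 0.12, adjusted p = 1.86e-09) and 1.90-fold in homozygotes (log2 fold change -0.93, SE 0.12, adjusted p = 0.00012). Trim63 had 479.6, 584, 638 and 405 in wild-type and 261, 216, 211 and 198 in KEAP1-deficient adults and fell (log2 fold change -1.23, SE 0.13, adjusted p = 1.25e-06). In pups the order was the other way. Fbxo32 had 1374, 1347 and 1247 in wild type, 1835, 2758 and 2289 in L30F homozygotes and 1698, 3881 and 2578 in KEAP1-deficient pups, and Trim63 had 282, 350.4 and 367 in wild type, 408, 657 and 604 in L30F homozygotes and 443, 1139.9 and 690.1 in KEAP1-deficient pups. Every mutant pup library was above every wild-type library for both genes. In KEAP1-deficient pups Fbxo32 (log2 fold change 0.96, SE 0.27, adjusted p = 0.0196) and Trim63 (log2 fold change 1.09, SE 0.33, adjusted p = 0.0232) rose, calls that ended without wild-type library 3 for Fbxo32 (adjusted p = 0.0592), and without wild-type library 1 or 2 or KEAP1-deficient library 3 for Trim63 (adjusted p up to 0.0720). In L30F homozygous pups neither was called (0.78, adjusted p = 0.0555, and 0.72, adjusted p = 0.117).

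Ankrd1, a stress-responsive protein of the titin filament, rose in all 3 adult mutants. It had 22.4, 29.6, 37.3 and 40.3 in wild-type adults, 76.8, 106, 83.6 and 102 in heterozygotes, 86.8, 184, 135 and 57.5 in homozygotes and 40.6, 206, 161 and 117 in KEAP1-deficient libraries. All 12 mutant adult libraries were above the 4 wild-type ones. The values were log2 fold change 1.50, SE 0.42, adjusted p = 0.0375 in heterozygotes, log2 fold change 1.71, SE 0.42, adjusted p = 0.00976 in homozygotes and log2 fold change 1.80, SE 0.42, adjusted p = 0.00253 in KEAP1-deficient adults. The heterozygote call ended without any single heterozygote library and without wild-type library 1, 2 or 3 (adjusted p up to 0.126). In pups Ankrd1 had 73.9, 121 and 100.1 in wild type and 117, 223 and 224 in L30F homozygotes, which overlapped, and rose (log2 fold change 0.89, SE 0.28, adjusted p = 0.0293), though not without wild-type library 1 or 3 or homozygote library 2 or 3 (adjusted p up to 0.101).

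Myh7, Tnnc1, Actc1 and Ankrd1 are also heart genes. Of 7 heart markers 5 were listed in each table, and their summed normalised counts were 208 to 333 in wild-type adults, 104 to 332 in heterozygotes, 109 to 197 in homozygotes and 63.1 to 149.9 in KEAP1-deficient adults. In pups the sums were 536 to 567 in wild type, 391 to 901 in L30F homozygotes and 279 to 555 in KEAP1-deficient libraries. Ryr2, which nerve and smooth muscle also express, made up most of them. Myh6 was at 0 in all L30F homozygous and all KEAP1-deficient adult libraries and at 0 to 1.24 in wild-type adults, with 1 heterozygote library at 129. Nppb was at 2.40 to 13.5 in KEAP1-deficient adults and 0 to 0.672 in wild type, and rose there, while Ryr2 and Myl7 fell. In L30F adults Myl7 fell in both genotypes and none of the other 4 was called. Tnni3 was at most 9.46 in any adult library and at most 14.2 in any pup library. The part of heart RNA in the values of these 4 muscle genes was not tested.

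L30F homozygotes and KEAP1-deficient mice were also compared with each other within each age. In pups 2 of the 40 genes were called between these groups, against 4.17% of all genes (1.76% higher, 2.40% lower). Myog (log2 fold change 1.09, SE 0.17, adjusted p = 0.0224) and Tnnt1 (log2 fold change 1.19, SE 0.26, adjusted p = 0.0467) were higher in L30F homozygotes. Both calls ended without single libraries: Myog without KEAP1-deficient library 1 or 2 (adjusted p up to 0.0644), Tnnt1 without any of 8 of the 9 libraries (up to 0.144). Without L30F homozygote library 3 the count was 17, 5 higher and 12 lower in L30F homozygotes (924 over all genes, against 875), and Mb (-2.51, adjusted p = 0.00982) and Myh3 (2.47, adjusted p = 0.0127) were then among those called. With all libraries Mb (-1.95, adjusted p = 0.0664), Myh3 (1.99, adjusted p = 0.0521), Tnni1 (2.05, adjusted p = 0.0535) and Myh7 (4.02, adjusted p = 0.0825) were not called.

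In adults 31 muscle genes were higher and 2 lower in L30F homozygotes than in KEAP1-deficient libraries, against 26.4% of all genes called (12.9% higher, 13.5% lower), with a median of 1.11 against -0.02 over all genes. Myh4 (3.07), Mylk2 (2.35) and Mb (2.20, adjusted p = 6.63e-08) differed most among those higher in homozygotes. The 2 lower ones were Tnnc1 (log2 fold change -3.04, SE 0.70, adjusted p = 0.0047) and Tnnt1 (log2 fold change -1.67, SE 0.54, adjusted p = 0.0341), the latter called only with homozygote libraries 1, 3 and 4 and all KEAP1-deficient libraries included (adjusted p up to 0.0914). Tnni1 (-0.33, SE 0.53, adjusted p = 0.697), Myh3 (0.48, SE 0.37, adjusted p = 0.378) and Ankrd1 (-0.09, SE 0.42, adjusted p = 0.906), which rose against wild type in both genotypes, were not called between them.

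The effect of KEAP1 loss was tested for a difference between adults and pups. It differed for 30 of the 40 genes, 7 with a higher and 23 with a lower log2 fold change in adults, against 47.1% of all genes tested at both ages (20.6% higher, 26.5% lower). The members' median difference was -0.97, against -0.05 over all genes. Mylk2 (difference in log2 fold change -4.92, SE 0.34, adjusted p = 3.67e-09) and Mb (difference -4.60, SE 0.50, adjusted p = 5.89e-05) had risen in KEAP1-deficient pups and fell in KEAP1-deficient adults, as did Fbxo32 (-3.23), Myh1 (-3.01), Trim63 (-2.32) and Atp2a1 (-2.28). The slow troponins and Myh3 did the reverse: Tnnc1 (difference 6.53, SE 0.95, adjusted p = 6.67e-06), Tnni1 (4.38), Tnnt1 (3.83) and Myh3 (3.85) had fallen in pups and rose in adults. These 10 genes changed sides of 0 between the ages, each with a call on both sides.

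**Figure D5:**
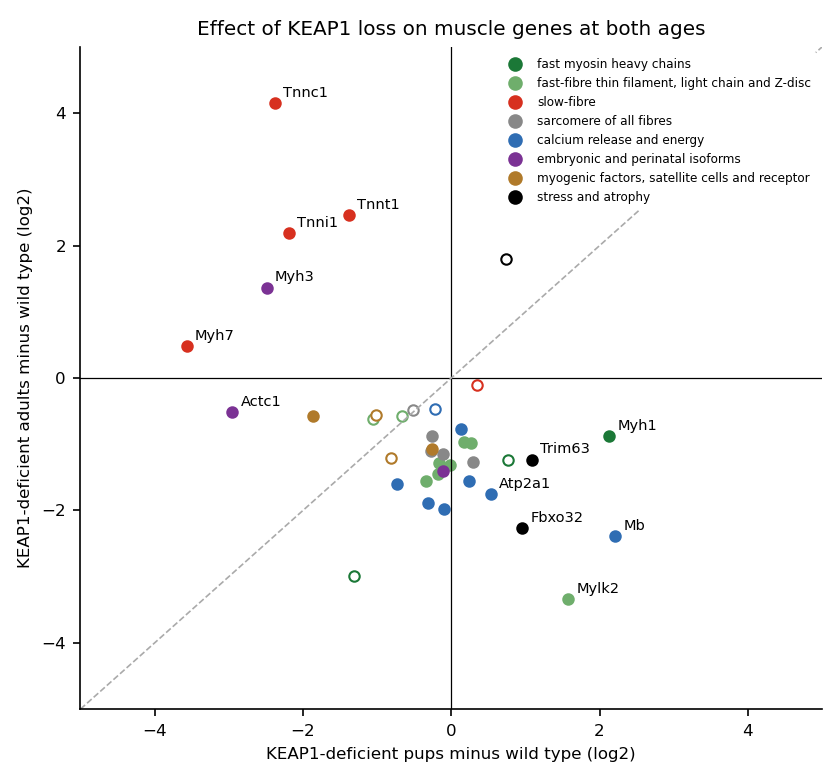
Log2 fold change after KEAP1 loss in pups (x axis) against that in adults (y axis) for the 40 genes, coloured by kind of gene. Filled points had an effect that differed between the ages, and the dashed line marks equal effects; Mylk2, Mb and Fbxo32 lie at the lower right and the slow troponins and Myh3 at the upper left.

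The effect of the homozygous L30F alleles differed between the ages for 13 of the 40 genes, 10 higher and 3 lower in adults, against 33.5% of all genes (13.6% higher, 19.9% lower). The share was near that of all genes. Myh3 (difference 2.34, SE 0.57, adjusted p = 0.00378), Tnni1 (2.003), Myog (1.05), Myl1 (0.90) and Mylpf (0.82) were among the higher. Fbxo32 (difference -1.70, SE 0.30, adjusted p = 0.000891), Mylk2 (-1.63) and Myh1 (-1.11) were the 3 lower. The Tnni1 difference was lost without any of 9 single libraries (adjusted p up to 0.0835).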

How the data were processed

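RNA of whole esophagus was sequenced in 25 libraries. The authors deposited log2 values in a separate table for each experiment. Per the submitters' processing notes, Salmon and GRCm39 were used, and the version of Salmon is not given in the sources used here. No value is below 2, and values step as log2(n + 4), with n reads divided by a size factor, so whole reads could be recovered (tolerance 0.1, up to 1000 reads). Low genes had been removed before deposition: the highest library of every listed gene reached at least 0.509 CPM in pups and 0.502 in adults.

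The log was undone to give normalised counts, and limma 3.58.1 (R 4.3.3, statmod 1.5.0) was run with trend and robust settings after adding 1 and taking log2. A gene was tested if it reached 1 in at least 3 pup or 4 adult libraries (21007 and 19857 genes). The groups of each experiment were fitted together. Benjamini-Hochberg adjustment ran over every gene tested, with calls under 0.05. For age differences, the log2 fold changes of both experiments were subtracted and divided by the combined standard error (Welch-Satterthwaite degrees of freedom, 19031 genes). Coding lengths were the longest per gene in the GENCODE annotation of GRCm38. The fits were tested on simulated data.

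The members and lists were chosen with earlier results of these data known. Genes given library by library, in wild type and at least 1 mutant group, were the Myh genes, the 20 members with the smallest adjusted p among those called whose groups did not overlap, and the highest of each kind in wild-type adults; Tnnt1, Tnni1, Tnnc1, Actc1, Ankrd1, Myod1, Pax7, Mylpf and Myl1 were added after their values were seen. Of the further lists, the 3 called genes with the smallest adjusted p may be named; 1 of these is not reported here. Promoter windows come from RefSeq (GRCm38.p6). Alternatives are given in the closing section.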

Additional observations from a re-analysis of the deposited data

Results flagged for a closer look

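In 6 of 160 adult groups (40 genes in 4 groups of 4 libraries), a single library lay apart from the others by more than Dixon's 95% critical value of 0.829. Chance alone picks out about 1 in 20 groups. Of the 6, 3 fell in wild-type library 4, which also stood apart over all genes. Myh4 in KEAP1-deficient library 1 had 2752 normalised counts against a group median of 585, and that library also had the highest smooth muscle mean of its group. Wild-type library 4 stood high for the perinatal myosin Myh8 (114839 normalised counts against a group median of 100636), for cardiac actin Actc1 (12480.1 normalised counts against a group median of 10268) and for the calcium store protein Casq1 (5348 normalised counts against a group median of 4552). Wild-type library 1 stood low for the calcium release channel Ryr1 (21631 normalised counts against a group median of 24729). Heterozygote library 3 stood high for Myod1 (220.4 normalised counts against a group median of 115).

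The effect of KEAP1 loss differed between adults and pups by the test of the difference in log2 fold change (adult minus pup, 4 and 3 libraries a group, adjusted p over 19031 genes from 6.87e-10 to 0.021). It was lower in adults for the contractile and energy genes Myh1 (-3.01), Acta1 (-1.14), Actn3 (-1.25), Tnnt3 (-1.12), Tnni2 (-1.27), Tnnc2 (-1.21), Mylk2 (-4.92), Myoz1 (-1.29), Tpm1 (-0.62), Tpm2 (-0.82), Ttn (-1.55), Neb (-1.04), Ryr1 (-1.80), Atp2a1 (-2.28), Cacna1s (-0.91), Ckm (-1.89), Mb (-4.60), Pygm (-1.58), Eno3 (-0.87), Myh8 (-1.30), Chrna1 (-0.82), Fbxo32 (-3.23) and Trim63 (-2.32). It was higher in adults for Myh7 (4.05), Tnnt1 (3.83), Tnni1 (4.38), Tnnc1 (6.53), Myh3 (3.85), Actc1 (2.43) and Myog (1.29).

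The effect of the homozygous L30F alleles differed by the same test (adjusted p from 0.000421 to 0.0356). It was higher in adults for Tnnc2 (0.66), Mylpf (0.82), Myl1 (0.90), Tnni1 (2.003), Actn2 (0.82), Casq1 (0.90), Eno3 (0.75), Myh3 (2.34), Myog (1.05) and Pax7 (0.65), and lower in adults for Myh1 (-1.11), Mylk2 (-1.63) and Fbxo32 (-1.70). Age, constitutive against inducible Cre, and tamoxifen cannot be told apart in these differences.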

How the results depend on the processing

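Alternatives were TMM scaling, no filter on low values, offsets of 0.1 and 4, limma-voom on recovered reads and only the groups compared. Others were thinning to equal depth, blocking on the replicate number and omission of single libraries. The last was the mean of the other sarcomere genes (22 in pups, 21 in adults) as a covariate. Of 177 calls over the 9 comparisons, 177 were kept under TMM, 177 without the filter, 176 and 177 under the offsets, 172 under limma-voom, 169 with only the groups compared, 171 after thinning and 77 with the covariate, which itself differs between adult groups; 59 were kept under all settings and left-out libraries.

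With the covariate, counts of called muscle genes moved along with those over all genes. They were 0 in heterozygous adults (all genes 150, from 1927) and 8 in KEAP1-deficient adults (1926, from 9290). Between adult homozygotes and KEAP1-deficient libraries 1 was called (48, from 5248), and 17 for the KEAP1 age difference (3882, from 8967). Between pup mutants 4 were called (1313, from 875), and with only the groups compared 0 (185 over all genes). The covariate turned the direction of Actn3 (0.21), Mylpf (0.24), Actn2 (0.24), Casq1 (0.42), Cacna1s (0.041) and Actc1 (0.25) in KEAP1-deficient adults. Between adult mutants it turned Actn3 (-0.24), Casq1 (-0.13), Cacna1s (-0.075) and Chrna1 (-0.076). For the KEAP1 age difference it turned Actn3 (0.11), Tpm1 (0.33), Tpm2 (0.20), Casq1 (0.85), Cacna1s (0.087), Eno3 (0.24) and Myh8 (0.010). The cause was not tested.

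Leaving out 1 library gave 8 to 20 calls in L30F homozygous pups (6507 to 8307 over all genes). It gave 17 to 23 in KEAP1-deficient pups (8780 to 10588) and 0 to 17 between pup mutants (47 to 924). In adults it gave 5 to 19 in heterozygotes (623 to 2448) and 7 to 11 in homozygotes (3057 to 4984). It gave 32 to 37 in KEAP1-deficient adults (8246 to 9669) and 31 to 34 between adult mutants (4097 to 5699). For the age differences it gave 11 to 16 for L30F (5454 to 6597) and 29 to 32 for KEAP1 (8164 to 9177).

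With the replicate number as a block, 22, 24 and 0 muscle genes were called in the pup comparisons (L30F, KEAP1, between mutants). Over all genes 8060, 10318 and 222 were called there. In the adult comparisons (heterozygotes, homozygotes, KEAP1, between mutants) 12, 10, 37 and 32 muscle genes were called. Over all genes 1767, 4317, 9178 and 5096 were called there. The numbers do not pair the libraries: deviations of same-numbered libraries correlated above 0.1 in 1 of 9 pup pairs (-0.104 to 0.219) and 0 of 24 adult pairs (-0.0736 to 0.0954). Between pup mutants 42.3% of all called genes were higher in L30F homozygotes, and 52.3% under TMM. Adult homozygote libraries, the shallowest, limit low genes such as Myh7 and Tnnc1.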
